A study of Mus musculus with 22 samples.

Results

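RNA levels of 42 genes of the DNA replication machinery were followed in primordial germ cells (PGCs) sorted from mouse embryos, the cells that later give rise to eggs and sperm. The genes were listed by symbol for their roles in origin licensing, at the replication fork and in nucleotide supply. Each matched 1 Ensembl gene in both count tables, so they are 42 of the 37620 genes that the tables share, and all 42 passed the filter on low counts. RNA sequencing of PGCs covered embryonic days E10.5, E12.5 and E14.5, and the sexes were kept apart from E12.5 on. In the Tet1 cross both parents were heterozygous for Tet1, whose product acts on methylated DNA by oxidising the methyl group, and both carried the GOF18ΔPE-EGFP reporter, a green fluorescent protein under germ cell control sequences of Pou5f1. Its embryos were taken as Tet1-WT or Tet1-KO at E10.5 (sexes not separated) and, at E12.5 and at E14.5, as females and males of each of these genotypes. Wild-type E10.5 embryos from MF1 females and GOF18ΔPE-EGFP males formed a further group. Each of the 11 groups held 2 libraries, so every comparison of 2 groups rests on 2 libraries against 2. Tests of how a change or an effect differed between the sexes take in more groups. The knockout was present in the whole embryo and not in germ cells alone. Each Tet1 cross library was made from the pooled RNA of sorted cells of 2 to 6 embryos, so embryos within a library cannot be told apart.

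Replication starts where the origin recognition complex (ORC) sits on DNA and, with Cdc6 and Cdt1, loads the MCM2-7 helicase. Cdc45 and the GINS complex turn the loaded helicase on, the primase and DNA polymerases copy the strands behind it, Pcna holds the polymerases on DNA, RPA coats single strands, and ribonucleotide reductase and thymidylate synthase supply the building blocks. In the mouse gonad, female germ cells replicate a last time and enter meiosis, while male germ cells leave the mitotic cycle.

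The libraries of the Tet1 cross held between 9616436 and 25899505 counts and those of the MF1 cross 59415040 and 66924911. The member with the fewest counts in any library of the Tet1 cross was Gins2, with 92, so no member rested on a handful of reads. Levels are in CPM, a gene's counts scaled to a common library total, and a member is called higher or lower at an adjusted p under 0.05 in edgeR's quasi-likelihood test over all genes. Tet1 itself lay lower in both Tet1-KO libraries than in both Tet1-WT libraries at E12.5 and E14.5, but at E10.5 Tet1-KO replicate 2 (102 CPM) lay above Tet1-WT replicate 2 (76.8 CPM), so that stage is described by the labels alone. By edgeR's test Tet1 was called lower in Tet1-KO in E12.5 females (adjusted p = 0.0303). It was not called in E12.5 males (0.0553), E14.5 females (0.204) or E14.5 males (0.292). The headers of the Tet1-KO libraries at E12.5 and E14.5 repeat 1 replicate number, and the libraries are called A and B here in column order. All 10 germ cell markers had counts in every library. Summed over 15 markers of mesenchyme and mesonephros, E10.5 Tet1-WT held 2166 and 2609 CPM, E12.5 Tet1-WT 1001 and 1413 CPM in females and 2272 and 1431 CPM in males, and E12.5 Tet1-KO from 60.8 to 328 CPM. The E10.5 libraries labelled Tet1-KO held 537 and 1141 CPM. The E14.5 libraries held from 22.4 to 54 CPM of them, with between 1 and 6 of the 15 markers at 0, Osr1 among these in all 8. The MF1 libraries held 85.8 and 75.9 CPM.

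Between E12.5 and E14.5 about as many replication genes fell in Tet1-WT males as in Tet1-WT females, and a few rose in females. Of the 42 members 13 were lower and 0 higher at E14.5 in males, where 7.75% of all 17567 genes tested were called lower and 4.92% higher (12.7% in all). In females 12 were lower and 5 higher, against 14% and 11.3% of all genes (25.3% in all), so the share of members called higher in females was near that of all genes. The median log2 change of the members was -0.52 in males and -0.25 in females, beside 0 and -0.07 over all genes. Among the called members, Mcm4, Mcm7, Rrm1, Rrm2 and Tyms were lower in both sexes, which is 5 of the 17 called in females and 5 of the 13 called in males. No member was called higher in 1 sex and lower in the other. The summed level of the members was 9818 and 11060 CPM in E12.5 females, 8481 and 8670 CPM in E14.5 females, 9423 and 10597 CPM in E12.5 males, and 7744 and 6036 CPM in E14.5 males. In bulk RNA, fewer cells that express a gene and less of its RNA per cell cannot be told apart. The mesenchymal markers fell over the same interval, and their part in these changes was not tested. Without male E12.5 replicate 1, E12.5 replicate 2 or E14.5 replicate 2, 8, 6 and 4 members were called in males, and without female E14.5 replicate 1, 9 were called in females.

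**Figure D1:**
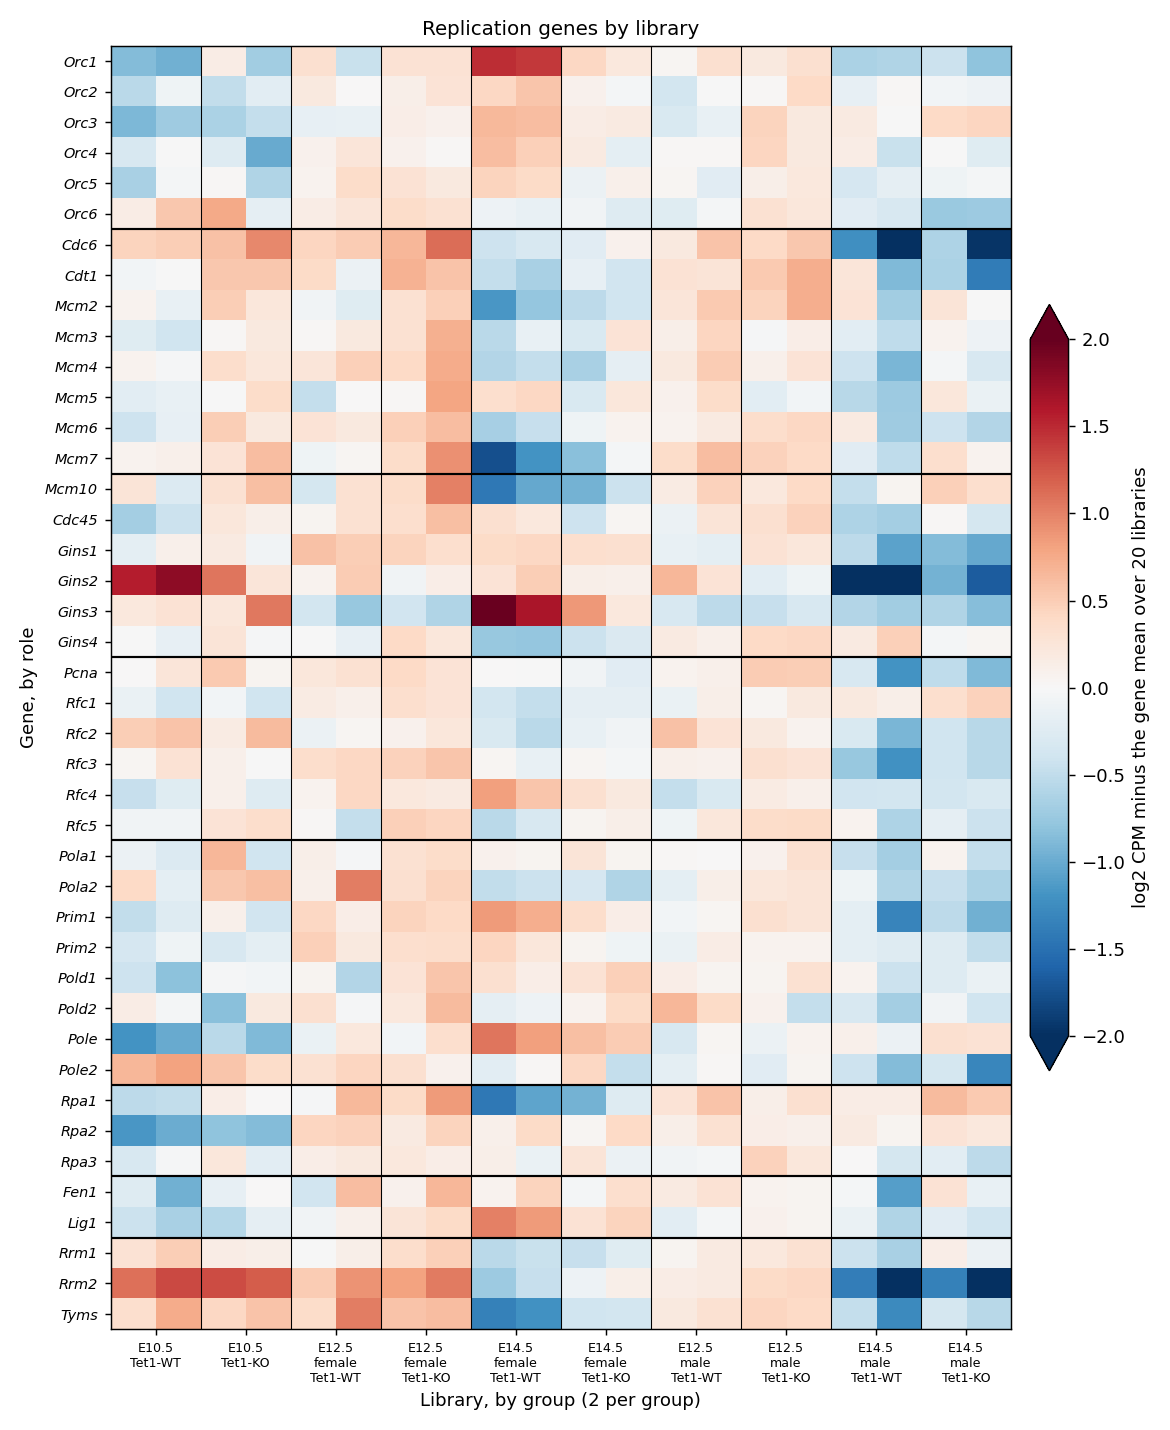
Level of each of the 42 replication genes (rows, grouped by role with black lines between the groups) in each of the 20 libraries of the Tet1 cross (columns, 2 per group), as log2 CPM minus the gene's own mean; values beyond 2 in either direction take the end colour. The female Tet1-WT columns at E14.5 are high for Orc1 and Gins3 and low for Mcm7, Mcm10, Rpa1 and Tyms, and the male columns at E14.5 are low for Cdc6, Gins2 and Rrm2.

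Among the 6 ORC genes, which mark the origins, 2 rose in females and 0 were called in males. Orc1, the subunit whose protein level follows the cell cycle, held 99.3 and 58 CPM in E12.5 females and 220 and 212 CPM in E14.5 females. In males it held 81.6 and 99.1 CPM at E12.5 and 51.2 and 52.4 CPM at E14.5. The E14.5 female libraries stood above all other libraries of the series, and the groups overlapped in neither sex. The female rise was 1.46 on the log2 scale (SE 0.26, adjusted p = 0.00072), and the male change was -0.8 (SE 0.26, adjusted p = 0.0551). The difference between the changes, male minus female, was -2.26 (SE 0.37, adjusted p = 0.0011) and was called without any 1 of the 8 libraries. Orc3, the ORC gene with the highest mean CPM, stood at 250 and 252 CPM in E12.5 females and at 437 and 432 CPM in E14.5 females. That rise was 0.79 (SE 0.13, adjusted p = 0.000362). In males Orc3 read 227 and 253 CPM, then 317 and 280 CPM (log2 0.32, adjusted p = 0.128), and the difference between the sexes was not called (-0.47, SE 0.19, adjusted p = 0.113). Orc2, Orc4, Orc5 and Orc6 were called in neither sex.

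The helicase and its loaders accounted for the largest number of falls of any role class in females and in males, 4 of 8 genes in each. Mcm7, a helicase subunit, held 416 and 456 CPM in E12.5 females and 131 and 194 CPM in E14.5 females, and 572 and 680 CPM and then 378 and 313 CPM in males. Both E14.5 groups lay wholly below their E12.5 groups, females lowest. Mcm7 fell by 1.43 in females (SE 0.25, adjusted p = 0.000644) and by 0.86 in males (SE 0.25, adjusted p = 0.0347). Leaving out any 1 of the 4 male libraries removed the male call (0.0543 to 0.228 for the adjusted p). Mcm4 went from 496 and 578 CPM to 279 and 299 CPM in females and from 480 and 594 CPM to 313 and 222 CPM in males. It fell by 0.89 (SE 0.2, adjusted p = 0.00335) and by 1 (SE 0.2, adjusted p = 0.00414), the latter call being lost without male E12.5 replicate 2 (adjusted p = 0.0519) or E14.5 replicate 2 (0.0685). Mcm6 dropped in females from 548 and 518 CPM to 284 and 328 CPM (log2 -0.8, SE 0.21, adjusted p = 0.0113), which was not called once female E14.5 replicate 1 was left out (adjusted p = 0.111). Mcm2 was the other female fall of the class, and it was not called without E12.5 replicate 1 (adjusted p = 0.0938) or E14.5 replicate 1 (0.213). In males Mcm6 read 475 and 509 CPM at E12.5 but 512 and 276 CPM at E14.5, so the groups overlapped.

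Mcm5, another subunit of the ring, differed between the sexes in its change. It held 299 and 420 CPM in E12.5 females and 530 and 559 CPM in E14.5 females (log2 0.6, SE 0.25, adjusted p = 0.0875). In males it held 443 and 540 CPM and then 284 and 252 CPM (log2 -0.88, SE 0.25, adjusted p = 0.0294), and leaving out any 1 of the 4 male libraries removed that call (0.0626 to 0.181 for the adjusted p). The difference between the sexes was -1.48 (SE 0.35, adjusted p = 0.0117) and was lost only without female E12.5 replicate 1 (adjusted p = 0.0508). Cdc6, the loader that brings the helicase to ORC, was the male member with the deepest fall of the class. It read 129 and 167 CPM in E12.5 males and 48.2 and 24 CPM in E14.5 males, both far below every E12.5 library. Its fall of 2.04 (SE 0.36, adjusted p = 0.00193) was called without any 1 library. In females Cdc6 went from 152 and 160 CPM to 84.5 and 90.2 CPM (log2 -0.84, SE 0.35, adjusted p = 0.0945), and the difference between the sexes was not called (-1.2, SE 0.49, adjusted p = 0.133). Cdt1 and Mcm3 were called in neither sex.

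Of the 4 GINS genes, whose proteins form 1 complex, Gins3 rose and Gins4 fell in females, Gins2 fell in males, and Gins1 was called in neither sex. Gins3 held 17 and 13 CPM in E12.5 females and 86.3 and 68.4 CPM in E14.5 females, the highest values of the series. In males it held 17.6 and 15.3 CPM and then 14.6 and 13.5 CPM. The female rise was 2.36 (5.15-fold, SE 0.31, adjusted p = 5.05e-05), the male change -0.23 (SE 0.3, adjusted p = 0.682), and the difference between them -2.59 (SE 0.43, adjusted p = 0.00112). Gins2 was not called in females, at 25.3 and 34.3 CPM and then 29.1 and 33.7 CPM (log2 0.07, SE 0.3, adjusted p = 0.902). In males it dropped from 38.2 and 29.2 CPM to 5.47 and 5.07 CPM. That 6.4-fold fall (log2 -2.68, SE 0.32, adjusted p = 8.79e-05) and its difference from the female change (-2.75, SE 0.43, adjusted p = 0.000806) were called without any 1 library. In the later GRCm38 gene models 67.3% of the exon bases of Gins2 lie under exons of Gse1 on the other strand, so its reads may be shared with that gene.

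Gins4 read 55.9 and 50 CPM and then 33.1 and 32.9 CPM in females (log2 -0.68, SE 0.17, adjusted p = 0.00857, not called without E14.5 replicate 1 at 0.0693 or replicate 2 at 0.0649), and 63.2 and 59.9 CPM and then 63.2 and 77.6 CPM in males. The difference was 0.88 (SE 0.25, adjusted p = 0.0286), and it was lost in 6 of the 8 fits that left out 1 library (adjusted p up to 0.123). Mcm10, which helps to activate the helicase, fell in females from 89.6 and 141 CPM to 42.1 and 56 CPM (log2 -1.24, SE 0.29, adjusted p = 0.00491), and the call was lost without female E12.5 replicate 2 (adjusted p = 0.0681) or E14.5 replicate 1 (0.0689). Cdc45, the partner of GINS on the helicase, fell in males from 98.8 and 128 CPM to 69.6 and 66.8 CPM (log2 -0.73, SE 0.2, adjusted p = 0.0236) and read 111 and 132 CPM and then 133 and 124 CPM in females. Leaving out male E12.5 replicate 2 (adjusted p = 0.23), E14.5 replicate 1 (0.0717) or E14.5 replicate 2 (0.15) removed that call.

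Of the clamp and its loader, 3 of 6 genes fell in males and 1 in females. Rfc3, a subunit of the loader, held 138 and 136 CPM in E12.5 males and 75.6 and 55 CPM in E14.5 males, a fall of 1.07 (SE 0.16, adjusted p = 0.000592) called without any 1 library. Rfc2, another subunit, went from 150 and 121 CPM to 80.5 and 52.8 CPM in males (log2 -1.02, SE 0.21, adjusted p = 0.00465), which was not called without E12.5 replicate 1 (adjusted p = 0.0708) or E14.5 replicate 2 (0.0832). Pcna, the clamp, read 409 and 420 CPM and then 313 and 171 CPM in males (log2 -0.78, SE 0.23, adjusted p = 0.0339), and 458 and 486 CPM and then 392 and 388 CPM in females (log2 -0.28, SE 0.22, adjusted p = 0.408). The 2 male E14.5 libraries stood far apart, and without replicate 2, the lower of them, the adjusted p was 0.345. The call was also lost without E12.5 replicate 1 (adjusted p = 0.15) or replicate 2 (0.142). Rfc1, the large subunit, fell in females from 323 and 307 CPM to 222 and 207 CPM (log2 -0.55, SE 0.15, adjusted p = 0.0119, not called without E14.5 replicate 1 at 0.0574 or replicate 2 at 0.107) and was not called in males, where it read 261 and 313 CPM and then 328 and 311 CPM. The difference was 0.71 (SE 0.21, adjusted p = 0.0386), which 6 of the 8 fits without 1 library did not call (adjusted p up to 0.189). Rfc4 and Rfc5 were called in neither sex. Pcna has the named pseudogenes Pcna-ps1 and Pcna-ps2, whose reads may be counted with it.

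Of the 8 genes of the primase and polymerases, 1 was called higher and 1 lower in females and 1 lower in males. Pole, the catalytic subunit of the leading-strand polymerase, held 158 and 202 CPM in E12.5 females and 366 and 306 CPM in E14.5 females. That rise of 0.9 (SE 0.19, adjusted p = 0.00226) was called without any 1 library. In males Pole read 139 and 179 CPM and then 186 and 160 CPM (log2 0.12, SE 0.19, adjusted p = 0.741), and the difference between the sexes was not called (-0.78, SE 0.27, adjusted p = 0.0696). Pola2, a subunit of the priming polymerase, fell in females from 69 and 132 CPM to 46 and 48 CPM (log2 -1.1, SE 0.28, adjusted p = 0.00791), with the call lost without E12.5 replicate 2, the high library (adjusted p = 0.174), or E14.5 replicate 1 (0.0664). Pold2, a small subunit of the lagging-strand polymerase, fell in males from 71.8 and 59.4 CPM to 36.4 and 28.4 CPM (log2 -1.02, SE 0.3, adjusted p = 0.0392), and no fit without 1 of the 4 libraries called it (adjusted p from 0.0641 to 0.26). Prim1, the gene of the class with the highest mean CPM, read 280 and 231 CPM and then 378 and 347 CPM in females, and 203 and 215 CPM and then 183 and 84.3 CPM in males, and was called in neither sex.

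Rpa1, the large subunit of the single-strand binding protein, fell in females and was not called in males. It held 563 and 897 CPM in E12.5 females and 211 and 276 CPM in E14.5 females, and 689 and 847 CPM and then 634 and 634 CPM in males. The female fall was 1.58 (3-fold, SE 0.24, adjusted p = 0.000206), the male change -0.28 (SE 0.24, adjusted p = 0.497) and the difference 1.31 (SE 0.34, adjusted p = 0.0198). The difference was lost without female E12.5 replicate 2 (adjusted p = 0.077), male E12.5 replicate 1 (0.0896) or female E14.5 replicate 1 (0.0931). Its partners Rpa2 and Rpa3 were called in neither sex. Lig1, the ligase that joins Okazaki fragments, rose in females from 311 and 348 CPM to 651 and 585 CPM (log2 0.91, SE 0.17, adjusted p = 0.0011) and read 282 and 318 CPM and then 298 and 214 CPM in males. The difference of -1.14 (SE 0.24, adjusted p = 0.00655) was called without any 1 library. Fen1, the flap nuclease of the same step, was low in every library of the Tet1 cross (from 6.27 to 21.4 CPM) and was not called, and 84.2% of its exon bases lie under exons of genes on the other strand in the GRCm38 models.

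All 3 listed genes of nucleotide supply fell in both Tet1-WT sexes. Rrm2, the small subunit of ribonucleotide reductase, had the highest mean level per kilobase of exon of the 42 members, at 307 CPM per kilobase over the 20 libraries. It held 940 and 1229 CPM in E12.5 females, 399 and 479 CPM in E14.5 females, 731 and 746 CPM in E12.5 males, and 251 and 74 CPM in E14.5 males. The male E14.5 libraries stood far apart and still lay below every other Tet1-WT library. The male fall was 2.18 (4.55-fold, SE 0.4, adjusted p = 0.00226) and was called without any 1 library. In females the fall was 1.3 (SE 0.39, adjusted p = 0.0202) and was lost without E12.5 replicate 2 (adjusted p = 0.111), E14.5 replicate 1 (0.142) or E14.5 replicate 2 (0.0615). The difference between the sexes was not called (-0.88, SE 0.54, adjusted p = 0.331). Tyms, thymidylate synthase, has the named pseudogene Tyms-ps, whose reads may be counted with it. It held 328 and 516 CPM in E12.5 females and 98.8 and 109 CPM in E14.5 females. In males it held 291 and 313 CPM and then 182 and 105 CPM. It fell by 2.03 in females (4.07-fold, SE 0.24, adjusted p = 2.45e-05) and by 1.07 in males (SE 0.23, adjusted p = 0.00773, lost without male E14.5 replicate 2 at 0.111). Rrm1, the large subunit, went from 536 and 586 CPM to 371 and 396 CPM in females and from 558 and 607 CPM to 401 and 344 CPM in males, with log2 changes of -0.55 (SE 0.14, adjusted p = 0.0081) and -0.65 (SE 0.14, adjusted p = 0.00676). The female Rrm1 call was lost without E14.5 replicate 1 (adjusted p = 0.0835) and the male call without E12.5 replicate 2 (0.0793) or E14.5 replicate 2 (0.104).

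**Figure D2:**
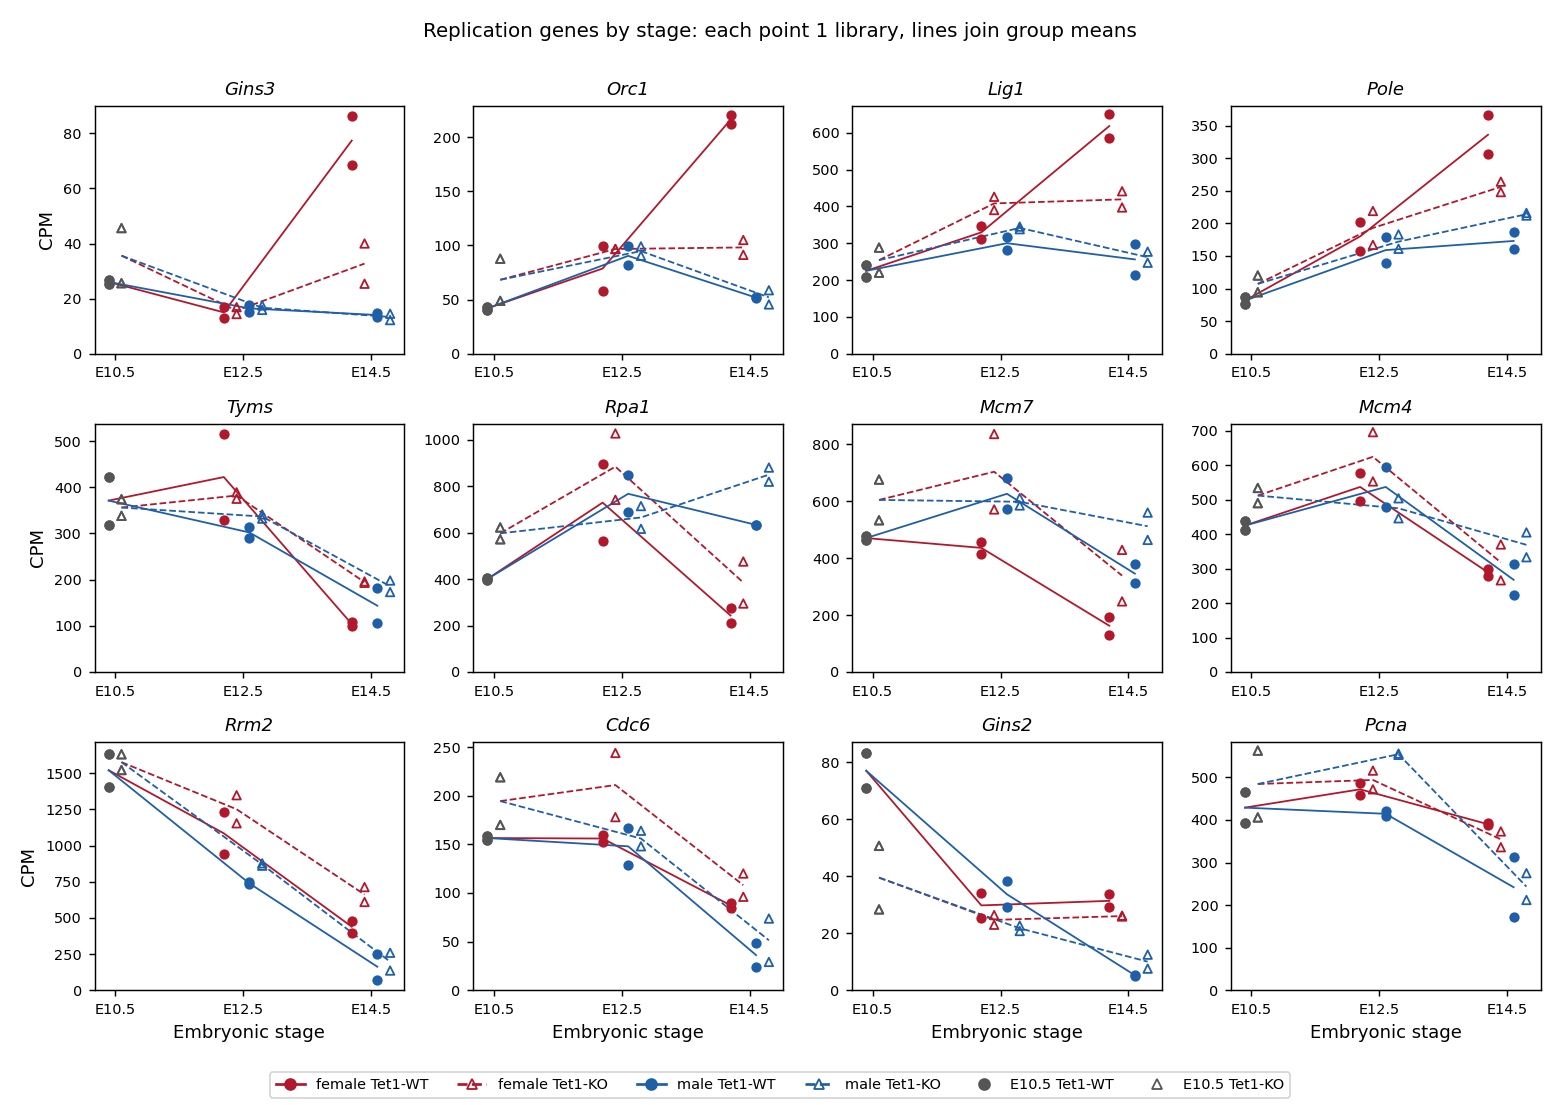
Level of 12 replication genes in CPM (vertical axis from 0) by embryonic stage, with each point 1 library, circles for Tet1-WT, open triangles for Tet1-KO, and lines joining group means of females (red) and males (blue); the grey E10.5 points serve both sexes. Gins3, Orc1 and Lig1 part between the Tet1-WT sexes after E12.5, whereas Rrm2 falls from 1405 and 1636 CPM at E10.5 Tet1-WT to 251 and 74 CPM in male Tet1-WT at E14.5.

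Tested directly, 8 of the 42 members changed differently in the sexes from E12.5 to E14.5, where 12.1% of all genes did (6.26% higher and 5.85% lower in males relative to females). Gins2, Orc1, Gins3, Lig1 and Mcm5 changed more to the low side in males, and Rpa1, Gins4 and Rfc1 more to the low side in females. The first 4 of these were called in all 8 fits that left out 1 library, and the count was 5 without male E12.5 replicate 1 or female E14.5 replicate 1 and 13 without male E14.5 replicate 1.

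**Figure D3:**
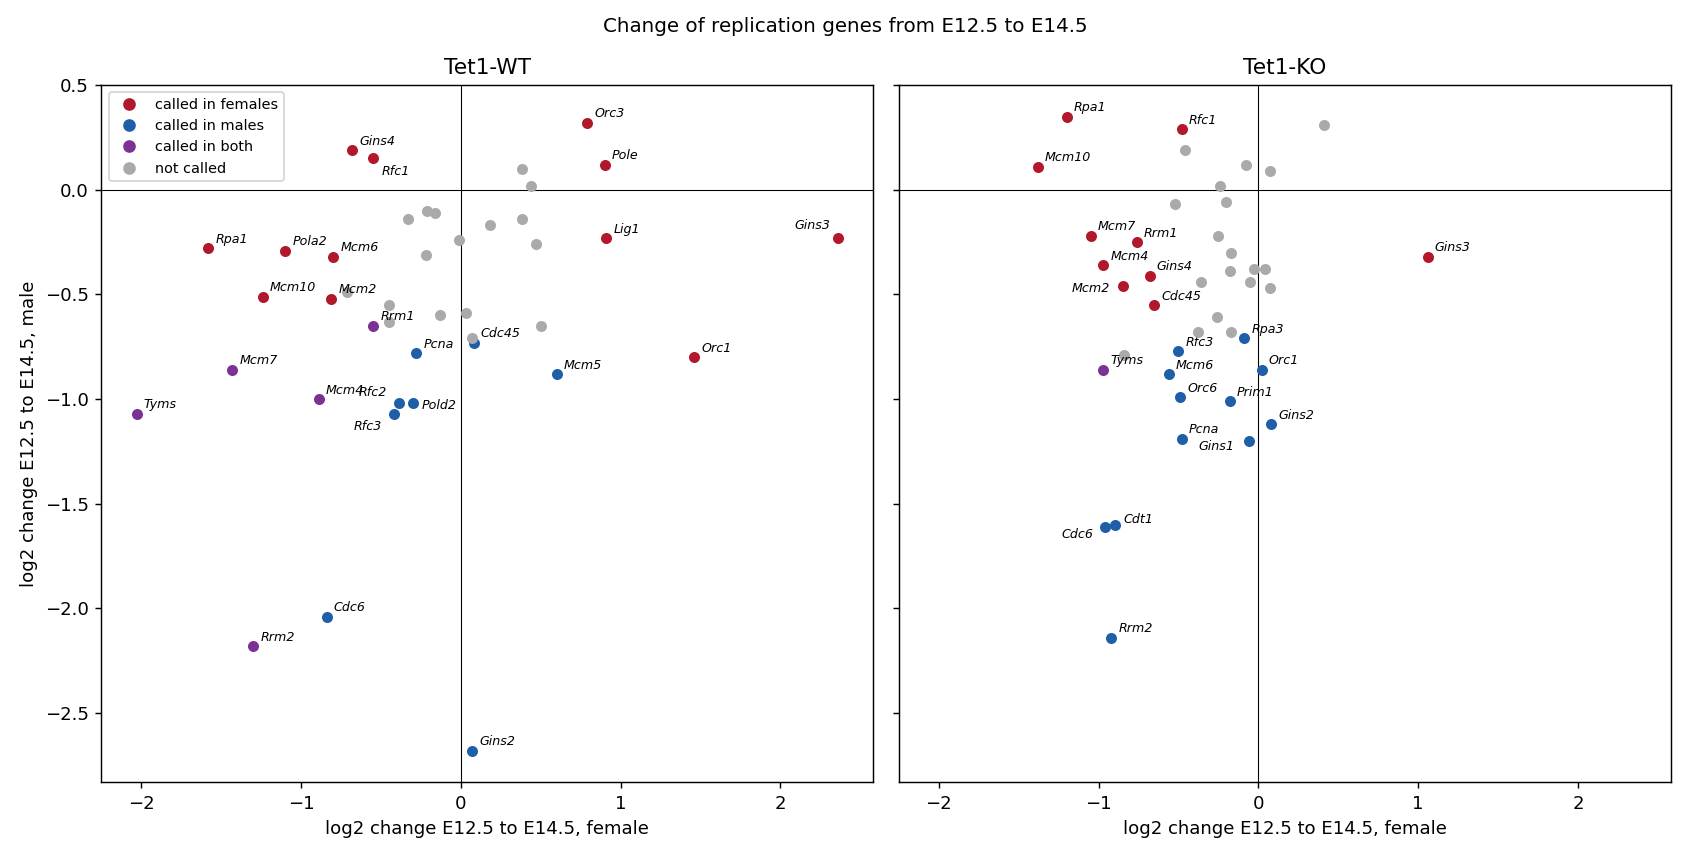
Fitted log2 change from E12.5 to E14.5 of the 42 members in females (horizontal) and males (vertical), in Tet1-WT (left) and Tet1-KO (right), coloured by the sex in which the change was called. In Tet1-WT, Gins3 lies farthest to the right (2.36 in females) and Gins2 lowest (-2.68 in males), and in Tet1-KO Rrm2 lies lowest (-2.14 in males).

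At E12.5 no member differed between Tet1-WT males and females by edgeR's test, where 0.575% of all genes did (0.245% higher and 0.33% lower). At an unadjusted p under 0.05, 2 members were higher and 3 lower in males, and DESeq2 called 0 higher and 2 lower. At E14.5, 19 members were lower and 6 higher in males than in females, against 14.1% and 14% of all genes (28.1% in all). The share of members called higher in males was thus near that of all genes. Of these 25 calls 13 stood without any 1 library, and without female replicate 1 the count was 16. The mesenchymal markers were low in both groups (54 and 43.5 CPM in females, 41.4 and 31.5 CPM in males). The germ cell markers summed to 5871 and 5662 CPM in females and 10886 and 10966 CPM in males. Most of them lay higher in both male libraries, but not all did. Dppa3 held 484 and 891 CPM in females and 5955 and 6287 CPM in males. Dazl alone went the other way, with 3835 and 3137 CPM in females and 2296 and 1997 CPM in males, and Kit and Tfap2c overlapped between the sexes. The sum thus need not follow the share of germ cells, and the part of both marker lists in the calls was not tested. These male and female libraries also enter the stage comparisons above. The lower members included 5 of the 6 ORC genes and, of the 6 helicase activation genes, Gins1, Gins2, Gins3 and Cdc45; of the ORC genes Orc1 alone was called without any 1 library. Gins1 held 79.5 and 81.7 CPM in females and 42.7 and 29.2 CPM in males (log2 -1.17, SE 0.19, adjusted p = 0.000273). Rfc4, a clamp loader subunit, held 479 and 400 CPM in females and 210 and 212 CPM in males (log2 -1.06, SE 0.16, adjusted p = 0.000132). Prim1 held 378 and 347 CPM against 183 and 84.3 CPM (log2 -1.44, SE 0.27, adjusted p = 0.000923). The groups did not overlap for any of these 3 genes, but they were picked by their calls, so this adds no support. The 6 members higher in males were Gins4, Rpa1, Mcm7, Rfc1, Mcm10 and Mcm2. Rpa1 was 2.6-fold higher (log2 1.38, SE 0.24, adjusted p = 0.000539) and Gins4 2.14-fold (log2 1.09, SE 0.18, adjusted p = 0.000227), and both stood without any 1 library.

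In Tet1-KO embryos members also fell from E12.5 to E14.5, and of the 5 rises of Tet1-WT females 1 was called in Tet1-KO females. Whether the stage change differed between the genotypes was not tested in either sex. Of the 42 members 10 were lower and 1 higher in Tet1-KO females, against 7.02% and 4.02% of all genes (11% in all). In Tet1-KO males 13 were lower and 0 higher, against 4.87% and 5.5% (10.4% in all). The mesenchymal markers held 60.8 and 60.9 CPM in Tet1-KO females at E12.5 and 22.4 and 33.5 CPM at E14.5, and 328 and 201 CPM in Tet1-KO males at E12.5 and 38.2 and 38.3 CPM at E14.5, and their part in these falls was not tested. Of the 10 genes that fell in Tet1-KO females 9 had also fallen in Tet1-WT females (9 of 12 there), and 6 of the 13 that fell in Tet1-KO males had fallen in Tet1-WT males. Rrm1 went from 687 and 746 CPM to 390 and 456 CPM in Tet1-KO females (log2 -0.76, SE 0.14, adjusted p = 0.00265) and was the 1 female call that stood without any 1 library. Mcm10 went from 146 and 228 CPM to 59.2 and 84.3 CPM (log2 -1.38, SE 0.29, adjusted p = 0.00642) and Rpa1 from 742 and 1028 CPM to 295 and 476 CPM (log2 -1.2, SE 0.24, adjusted p = 0.00524). Both were lost without E12.5 library B (adjusted p = 0.0917 and 0.0693) or E14.5 library A (0.0674 and 0.0614).

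Gins3 was the member that rose in Tet1-KO females, from 16.9 and 14.4 CPM to 40 and 25.4 CPM (log2 1.06, SE 0.3, adjusted p = 0.0334). The call was lost without E12.5 library A (adjusted p = 0.123), E12.5 library B (0.235) or E14.5 library A (0.261). Orc1 read 96.6 and 96.8 CPM and then 105 and 91.3 CPM in Tet1-KO females (log2 0.02, SE 0.26, adjusted p = 0.997), with the stages overlapping. Lig1 read 390 and 426 CPM and then 397 and 441 CPM (log2 0.04, SE 0.17, adjusted p = 0.94). In Tet1-KO males Gins1 fell from 74.6 and 71.4 CPM to 33.4 and 30.2 CPM (log2 -1.2, SE 0.19, adjusted p = 0.00158), the 1 male call that stood without any 1 library. Rrm2 fell there from 861 and 877 CPM to 259 and 136 CPM (log2 -2.14, SE 0.4, adjusted p = 0.00371), Pcna from 556 and 553 CPM to 275 and 212 CPM (log2 -1.19, SE 0.23, adjusted p = 0.00443) and Cdt1, the second helicase loader, from 58.7 and 67.8 CPM to 26.4 and 15.5 CPM (log2 -1.6, SE 0.32, adjusted p = 0.00545). All 3 calls were lost without E14.5 library B, with adjusted p of 0.0636, 0.0787 and 0.101. The count of members called was 5 in Tet1-KO females without E12.5 library A and 1 without E12.5 library B or E14.5 library A. In Tet1-KO males it was 5, 6, 8 and 1 without E12.5 library A, E12.5 library B, E14.5 library A and E14.5 library B. Between E14.5 Tet1-KO males and females, 10 members were lower and 3 higher in males, against 7.43% and 11.6% of all genes (19% in all), and 2 were called without male library B and 4 without female library A.

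Set against Tet1-WT at the same stage, Tet1-KO females at E14.5 differed in 5 members. Orc1, Gins3 and Orc3 were lower and Mcm7 and Tyms higher, against 3.29% and 3.36% of all genes (6.65% in all). Orc1 held 105 and 91.3 CPM in Tet1-KO and 220 and 212 CPM in Tet1-WT (log2 -1.14, SE 0.26, adjusted p = 0.0178). Gins3 held 40 and 25.4 CPM against 86.3 and 68.4 CPM (log2 -1.24, SE 0.3, adjusted p = 0.0219). Orc3 held 312 and 319 CPM against 437 and 432 CPM (log2 -0.46, SE 0.13, adjusted p = 0.0467). Mcm7 held 248 and 429 CPM against 131 and 194 CPM (log2 1.06, SE 0.25, adjusted p = 0.0209), and Tyms 193 and 196 CPM against 98.8 and 109 CPM (log2 0.91, SE 0.24, adjusted p = 0.0304). For each of the 5 the groups did not overlap, but the 5 were picked by their calls, so this adds no support. These Tet1-WT libraries are also those of the female stage change, so the pattern is not an independent one. Without Tet1-WT replicate 1 or Tet1-KO library B, 0 of the 5 were called (adjusted p from 0.143 to 0.31), and without Tet1-WT replicate 2 Orc1 (0.0552), Tyms (0.0958) and Orc3 (0.165) were not. Summed over 12 meiotic prophase genes, E14.5 Tet1-WT females held 11570 and 9631 CPM and Tet1-KO females 4705 and 3701 CPM, and the part of this difference in the 5 calls was not tested.

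In Tet1-KO males at E14.5 no member differed from Tet1-WT by edgeR's test, where 0.102% of all genes did (0.0797% higher and 0.0228% lower). At an unadjusted p under 0.05, 9 were higher and 1 lower in Tet1-KO, and DESeq2 called 1 higher and 0 lower. The log2 differences ran from -0.75 to 0.93. Tested directly, the Tet1-KO effect differed between the sexes for 1 member, where 1.43% of all genes differed (0.951% higher and 0.478% lower in males relative to females). Orc3 held 370 and 378 CPM in E14.5 male Tet1-KO and 317 and 280 CPM in Tet1-WT, and the difference of the effects, male minus female, was 0.79 (SE 0.19, adjusted p = 0.0492). It was lost in all 8 fits without 1 library, with adjusted p from 0.0863 to 0.241. For Orc1 and Gins3 that difference was 1.14 (SE 0.37, adjusted p = 0.129) and 1.17 (SE 0.42, adjusted p = 0.177). At E12.5 no member was called between Tet1-KO and Tet1-WT in females or in males, where 1.29% of all genes were in females (0.142% higher and 1.15% lower) and 1.06% in males (0.12% higher and 0.939% lower). At an unadjusted p under 0.05, 8 members were higher and 0 lower in Tet1-KO females and 3 higher and 1 lower in Tet1-KO males, and DESeq2 called 0 in females and 1, higher, in males. At E12.5 the Tet1-KO libraries of each sex held far less of the summed mesenchymal markers than its Tet1-WT libraries, as given above. The part of this in the E12.5 differences was not tested.

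**Figure D4:**
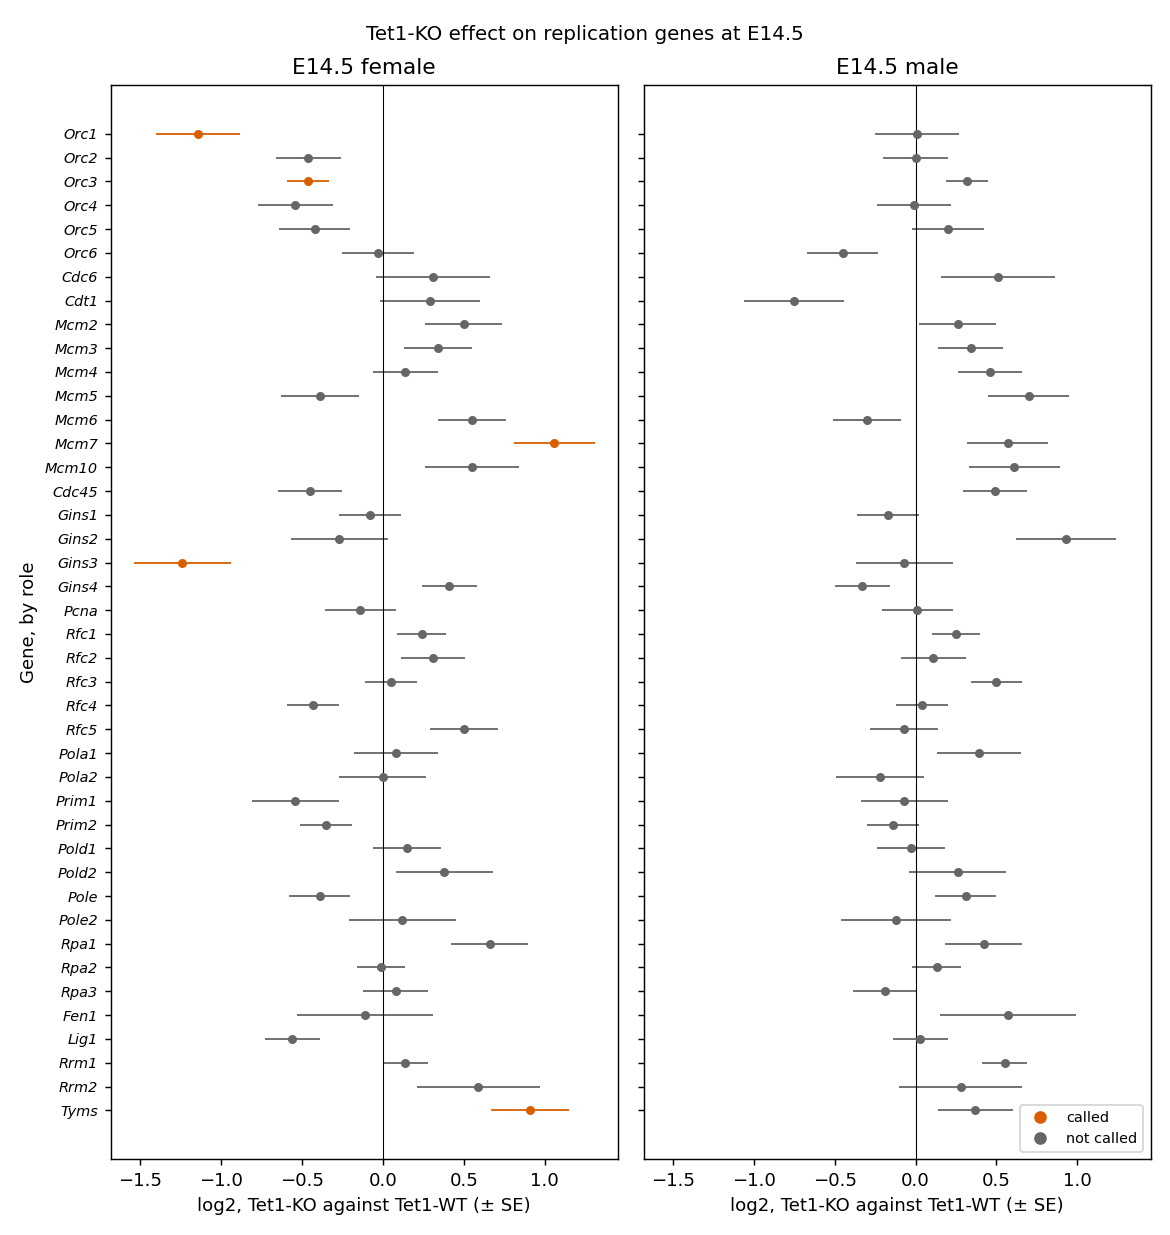
Fitted log2 difference between Tet1-KO and Tet1-WT at E14.5 for the 42 members, in females (left) and males (right) on 1 shared scale, with bars of 1 SE and called members in orange. In females Orc1 (-1.14), Gins3 (-1.24) and Orc3 (-0.46) lie to the left of 0 and Mcm7 (1.06) and Tyms (0.91) to the right, and in males none is called.

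From E10.5 to E12.5 the called members mostly rose. In Tet1-WT females 9 were higher and 1 lower at E12.5, against 8.81% and 4.83% of all genes (13.6% in all), and in Tet1-WT males 5 were higher and 1 lower, against 6.4% and 3.05% (9.45% in all). The 2 comparisons share the E10.5 libraries. Rpa2, the middle subunit of the single-strand binding protein, held 176 and 198 CPM at E10.5, 531 and 541 CPM in E12.5 females and 426 and 487 CPM in E12.5 males. Its rises of 1.52 (SE 0.15, adjusted p = 1.38e-05) and 1.29 (SE 0.15, adjusted p = 9.14e-05) were called without any 1 library. Pole held 76.2 and 86.9 CPM at E10.5 and rose by 1.14 in females (SE 0.19, adjusted p = 0.00104) and by 0.96 in males (SE 0.19, adjusted p = 0.00487, lost without male E12.5 replicate 2 at 0.074). Orc3 held 151 and 172 CPM at E10.5 and rose by 0.64 in females (SE 0.13, adjusted p = 0.00434) and by 0.57 in males (SE 0.13, adjusted p = 0.0118). Both Orc3 calls were lost without E10.5 replicate 1 (adjusted p = 0.0661 and 0.118), the male call also without male E12.5 replicate 2 (0.14). Orc1 and Rpa1 were also higher in both sexes, but each of these 4 calls was lost in 3 of the 4 fits that left out 1 library (adjusted p up to 0.345). Gins2 fell, from 71 and 83.2 CPM at E10.5, by 1.37 in females (SE 0.3, adjusted p = 0.00644, lost without female E12.5 replicate 1 at 0.0582) and by 1.19 in males (SE 0.3, adjusted p = 0.0191), where no fit without 1 library called it (adjusted p from 0.0509 to 0.223). In females 3, 4 and 6 members were called without E10.5 replicate 1, E10.5 replicate 2 and female E12.5 replicate 2. In males 2, 3 and 1 were called without E10.5 replicate 1, E10.5 replicate 2 and male E12.5 replicate 2. Germ cell markers summed to 1766 and 1445 CPM in E10.5 Tet1-WT and to between 4979 and 7687 CPM in E12.5 Tet1-WT. Every listed marker was higher in E12.5 females, and every one but Tfap2c in E12.5 males, though by unlike amounts. Dazl went from 4.58 and 18.9 CPM to 2067 and 1164 CPM in females and 1049 and 1404 CPM in males. Tfap2c went from 35.5 and 32.1 CPM to 68.7 and 47.3 CPM in females and 27.8 and 32.9 CPM in males. Since the amounts differed, the sum need not follow the share of germ cells. The summed mesenchymal markers given above were lower in E12.5 females than at E10.5 and overlapped in males. The part of both marker lists in the changes was not tested.

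At E10.5 the libraries labelled Tet1-KO differed from Tet1-WT in 1 member, against 8.81% of all genes (4.1% higher and 4.7% lower). Cdc45 held 66.7 and 79.4 CPM in Tet1-WT and, where the label is Tet1-KO, 125 and 116 CPM (log2 0.73, SE 0.2, adjusted p = 0.0338), and no fit without 1 of the 4 libraries called it (adjusted p from 0.0543 to 0.198). Germ cell markers summed to 6068 and 3946 CPM in these libraries, above Tet1-WT, and mesenchymal markers to 537 and 1141 CPM, below Tet1-WT, and the part of both in this call was not tested. The MF1 libraries were counted, scaled and fitted apart, with Tet1-WT at E10.5 as the other group and RNA isolated with another kit, so cross and preparation cannot be told apart. They also held less of the summed mesenchymal markers than Tet1-WT did, and the part of this in that fit was not tested. No member was called by edgeR there, where 0.606% of 15500 genes were (0.0903% higher and 0.516% lower), 1 was higher and 0 lower at an unadjusted p under 0.05, and DESeq2 called 0. The MF1 libraries differed from each other, with Rrm2 at 1580 and 608 CPM, Mcm7 at 985 and 484 CPM and Mcm4 at 840 and 300 CPM, and without MF1 replicate 1 or replicate 2 the count was 16 and 14, in fits that called 4430 and 4651 of all genes against 94 with all 4 libraries.

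The members were then searched for short motifs of the E2F type, the binding sequence of a family of factors known to act on S phase genes. RefSeq promoter windows of GRCm38.p6, from 250 bases before to 50 after a gene's start, were at hand for 35 of the 42 members and were read on both strands, without mismatch, for 4 motifs of 7 bases. At least 1 motif stood in a window of 23 of the 35 members (65.7%), of 2242 of 12251 genes tested in these data (18.3%), and of 2936 of all 27025 genes with a window (10.9%). The motif TTCCCGC was in the windows of 14 members (40%) and of 9.26% of the genes tested. The motif TTGGCGC was in those of 10 members (28.6%) and 4.75% of the genes tested. The motif TTCGCGC was in those of 7 members (20%, against 3.2%). The motif TTGCCGC was in that of 1 member (2.86%, against 3.22%), and motifs in 1 window may overlap. The stretches below, each of 30 bases, 5′ to 3′ on the strand of the gene, show in capitals the upstream motif nearest to the start for the 4 members that hold one and had the smallest adjusted p from E12.5 to E14.5 in Tet1-WT. Mcm7 has 2 windows, both with motifs, and its stretch is from the 1 with more motifs upstream of the start or, if equal, the lower start coordinate. TTCCCGC is the marked motif of Gins3, Orc3 and Mcm7, and TTCGCGC that of Rfc3.
Gins3, chr8:95633507-95633536, plus strand, motif read on the other strand: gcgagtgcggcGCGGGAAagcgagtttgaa
Orc3, chr4:34614964-34614993, minus strand: catgcctccctTTCCCGCacgccccgcctc
Rfc3, chr5:151651199-151651228, minus strand: cgtcgcacgctTTCGCGCtcgcgggaaaac
Mcm7, chr5:138171361-138171390, minus strand: gcgctagcgaaTTCCCGCgtccactggaga
Gins3 and Orc3 rose in females, Rfc3 fell in males and Mcm7 fell in both sexes. In the gene models the stretch of Gins3 lies in an exon of Gins3, that of Rfc3 reaches into its own exon, that of Orc3 overlaps an exon of Rars2 on the other strand, and that of Mcm7 lies in no exon. A match of these letters is a description and does not show that a factor binds.

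Counts for lists of related genes over the same interval are set beside the share of all genes called, which was 11.3% higher and 14% lower in Tet1-WT females, 4.92% and 7.75% in Tet1-WT males, 4.02% and 7.02% in Tet1-KO females, and 5.5% and 4.87% in Tet1-KO males. Of 35 replication regulators and accessory factors, 6 were higher and 2 lower from E12.5 to E14.5 in Tet1-WT females, 0 and 12 in Tet1-WT males, 0 and 1 in Tet1-KO females, and 0 and 11 in Tet1-KO males. Asf1b, a histone chaperone at the fork, held 152 and 248 CPM in E12.5 females and 779 and 804 CPM in E14.5 females (log2 1.99, adjusted p = 2.09e-05), and 316 and 325 CPM in E14.5 Tet1-KO females (log2 -1.31 against Tet1-WT, adjusted p = 0.0048). Rnaseh2a, a subunit of the nuclease that removes RNA from DNA, went the other way, from 113 and 90.4 CPM to 36.6 and 36.4 CPM in Tet1-WT females (log2 -1.48, adjusted p = 9.23e-06), with 62 and 71 CPM in E14.5 Tet1-KO females (log2 0.87, adjusted p = 0.00517). Tk1, the thymidine kinase of the salvage route, held 84.9 and 66.8 CPM in E12.5 males and fell there (log2 -2.05, adjusted p = 0.000504), with 26.2 CPM in the higher E14.5 library, and read 104 and 107 CPM in E14.5 females. Asf1b, Rnaseh2a and Tk1 each differed between the sexes in their change (log2 -2.72, 1.68 and -2.38, male minus female; adjusted p = 0.000138, 0.000211 and 0.00185).

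Of 18 E2F factors, pocket proteins and S phase cyclins, 2 were higher and 6 lower in Tet1-WT females and 1 and 5 in Tet1-WT males over the same interval. Ccne2, a cyclin of S phase entry, rose in Tet1-WT females from 45.4 and 45.2 CPM to 520 and 376 CPM (log2 3.31, SE 0.42, adjusted p = 4.01e-05) and stood at 171 and 79.5 CPM in E14.5 Tet1-KO females and at 28.1 and 11.7 CPM in E14.5 Tet1-WT males. Of 14 genes of mitotic division, 9 were lower and 2 higher in Tet1-WT females, among them Ccnb1 and Aurkb, which fell, and Bub1, which rose, and 5 were lower and 1 higher in Tet1-WT males. Of 12 meiotic prophase genes, 11 rose in Tet1-WT females and 5 in Tet1-WT males, with 0 falling in either. Of 10 repair and translesion polymerase genes, 3 were higher and 1 lower in Tet1-WT females and 0 and 1 in Tet1-WT males.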

How the data were processed

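RNA of sorted PGCs was amplified as cDNA with the SMARTer Ultra Low Input kit and sequenced, per the labels' protocols. The authors deposited 2 tables of raw read counts per Ensembl gene, 1 with the 20 libraries of the Tet1 cross (37991 genes) and 1 with 2 MF1 libraries (37620 genes). Per the submitters' processing notes, reads were handled with Trimmomatic, TopHat2 2.0.2, Bowtie 0.12.8 and HTSeq 0.5.3p9 on mm9. Strand and multi-mapping settings are not given in the sources used here, so antisense neighbours and pseudogenes may share reads.

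Symbols came from Ensembl identifiers, and 32919 genes received one. In R 4.3.3, edgeR 4.0.16 (filterByExpr with minimum count 10 and minimum total 15, TMM, robust quasi-likelihood, prior count 0.125) fitted 1 coefficient per group to the 20 libraries (17567 genes, biological coefficient of variation 0.46, 10 residual degrees of freedom). MF1 and E10.5 Tet1-WT were fitted apart (15500 genes, 4 libraries, coefficient 0.78). Every adjusted p is edgeR's, by Benjamini-Hochberg over all genes of the comparison. Total counts ran from 9616436 to 66924911 per library. Amplified reads carry no molecular identifiers, and p-values measure the spread between pooled libraries. Alternatives were DESeq2 1.42.0 (size factors, test), no filter, fits of the compared groups only, the replicate block, and leaving out each library. The figures used Python 3.11.15 and matplotlib 3.10.9.

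The members, lists and named genes were chosen with earlier results of these data known. Values per library are given for up to 3 called members of each role class and comparison with the smallest adjusted p, and for the member of each class with the highest mean CPM, and the text prints a part of these. Other members named were chosen after their values were seen. Exon lengths and overlaps come from GENCODE M21 on GRCm38, a later build than mm9, and promoter windows from RefSeq on GRCm38.p6. Besides Gins2 and Fen1, members with exon bases under other genes include Orc2 (29.8%), Rfc2 (15.1%), Rfc4 (12.7%) and Mcm7 (12.6%). Gins1, Gins2, Gins4, Mcm4, Pole, Prim2 and Rfc2 had no window.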

Additional observations from a re-analysis of the deposited data

Results flagged for a closer look

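In 9 results males and females differed by a test of the difference itself. In Tet1-WT the change from E12.5 to E14.5, male minus female, was -2.75 on the log2 scale for Gins2 (adjusted p = 0.000806), -2.26 for Orc1 (0.0011), -2.59 for Gins3 (0.00112), -1.14 for Lig1 (0.00655), -1.48 for Mcm5 (0.0117), 1.31 for Rpa1 (0.0198), 0.88 for Gins4 (0.0286) and 0.71 for Rfc1 (0.0386), all by edgeR's quasi-likelihood test. The Tet1-KO effect at E14.5, male minus female, was 0.79 for Orc3 (adjusted p = 0.0492).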

How the results depend on the processing

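None of the member calls reversed under any alternative run. Of 123 calls, 118 stood with DESeq2 size factors and 109 without the filter on low counts. Under DESeq2's test 122 stood, and 91 when only the groups compared were fitted. Of the 80 calls that could be tested with the replicate block, 53 stood. Many calls were lost when 1 library was left out, as described below. Counts of members called that moved by over 1.5 times were as follows, and the cause was not tested. With DESeq2 size factors the libraries labelled Tet1-KO at E10.5 differed in 2 members and the sex difference of the Tet1-KO effect in 0. Without the filter these were 4 and 3, with 2 for Tet1-KO in E12.5 females and 1 in E14.5 males. DESeq2's test gave 2 between the sexes at E12.5, 2 for Tet1-KO at E10.5, 1 for Tet1-KO males of E12.5 and 1 for those of E14.5, 13 for the sex difference of the stage change and 4 for that of the Tet1-KO effect. With only the groups compared in the fit, the counts were 3 from E10.5 to E12.5 in females, 26 from E12.5 to E14.5 in Tet1-KO males, and 0 at E10.5 for the Tet1-KO comparison. The Tet1-KO comparison then gave 3 members among E12.5 males, 2 among females of E14.5, and 0 for its sex difference.

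Same-numbered Tet1-WT and E10.5 libraries did not deviate together (correlations from -0.03 to 0.05), so no pairing by number was seen in the counts. That check cannot show whether libraries of equal number were prepared together. With the replicate block the counts were 6 and 3 from E10.5 to E12.5 in females and males, 0 for Tet1-KO at E10.5 and 5 for the sex difference of the stage change. The same 12 numbered libraries without the block, an alternative chosen after seeing the data, gave 6, 3, 0 and 6. No paired analysis was possible for Tet1-KO at E12.5 and E14.5 because the headers of those columns repeat 1 number.

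Leaving out 1 library each, the counts ran from 3 to 7 and from 1 to 6 for E10.5 to E12.5 in females and males, and from 9 to 17 and from 4 to 14 for E12.5 to E14.5 in Tet1-WT females and males. For that interval they ran from 1 to 8 in Tet1-KO females and from 1 to 8 in Tet1-KO males. Between the sexes they ran from 0 to 1 at E12.5, from 16 to 20 at E14.5 in Tet1-WT and from 2 to 11 in Tet1-KO. For Tet1-KO they ran from 0 to 2 at E10.5, 0 to 2 in E12.5 females and 0 to 5 in E14.5 females. The sex differences ran from 5 to 13 for the stage change and from 0 to 1 for the Tet1-KO effect, and MF1 from 0 to 16. Where an arm was left with 1 library, that library was assumed to vary like the other groups. The smallest count of a member in a library of the Tet1 cross was 92.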
